A study of Homo sapiens with 6 samples.

Results

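The transcripts described here are those of 6 glucose transporters, SLC2A1, SLC2A3, SLC2A4, SLC2A8, SLC2A10 and SLC2A12, and of 3 hexokinases, HK1, HK2 and HKDC1. They were picked by symbol, with no measured value in the rule, and make up 9 of the 38557 genes listed in each library. All except HKDC1 passed the filter on low counts, so 8 of them were among the 16107 genes tested. RNA was sequenced from cardiomyocytes made from WTC11, an established line of human induced pluripotent stem cells labelled as wild type. The only difference between groups that the labels name is the medium. One group of 3 biological replicates had been in RPMI plus B27, a supplement used in place of serum, whereas the second group of 3 had been in DMEM plus fatty acids. Neither the glucose content of the media nor the time in them is given, and all cells come from a single line. The comparison asked how transcripts differ with the backbone medium, and every fold change below has the level in RPMI plus B27 as its base, so a negative log2 value means less in DMEM plus fatty acids.

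Glucose enters most cells by facilitated diffusion through membrane proteins of the SLC2A family. SLC2A1 (GLUT1) carries basal uptake, SLC2A3 (GLUT3) is a high-affinity carrier best known from neurons, and SLC2A4 (GLUT4) is moved to the surface of muscle and fat cells by insulin or contraction. Hexokinases then add a phosphate, which traps glucose in the cell and opens the routes to glycolysis, glycogen and the pentose phosphate pathway. HK1 is the widely expressed isozyme, and HK2 is the isozyme of insulin-responsive tissues and of tumours. In the maturing heart GLUT4 is known to gain on GLUT1, and both HK1 and HK2 can dock on the mitochondrial outer membrane.

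The libraries held 23232324 to 31035389 counts in genes. Of 12 cardiomyocyte markers none passed the test by medium alone, and 2 (ACTN2 and MYH7) fell with the replicate number as a block. The summed level of the 12 was 32584 to 38654 CPM (counts relative to library size, after TMM scaling) in RPMI plus B27, against 25570 to 36270 in DMEM plus fatty acids. MYH6 went the other way without overlap, from 4754 ± 1118 to 8645 ± 1930 CPM (SD), and was not called with the block. DESeq2 called ACTN2 and MYH7 lower and MYH6 higher. Of 13 fibroblast and stromal markers 6 fell in DMEM plus fatty acids (10 with the block), and their sum was 7340 to 15322 CPM against 1190 to 2882. Of 8 epicardial markers 2 fell (5 with the block), with sums of 1997 to 2406 CPM against 882 to 1097. The 2 were the keratins KRT7 and KRT8, and KRT8 with KRT18 and KRT19 made up nearly all of these sums. TBX18 fell with the block, from 4.97 to 1.09 CPM on average, and WT1, TCF21 and UPK3B had means under 1 CPM, so the sums describe keratins. Of 6 smooth muscle markers 1 fell (3 with the block), with sums of 1571 to 1978 against 316 to 1146. Endothelial markers summed to 56.2 to 249.7 CPM against 119.8 to 471.0. KDR, with 27.5 to 238.7 CPM against 114.4 to 462.8, took up much of that sum and rose with the block. EGFL7 went the other way without overlap, from 15.3 to 6.32 CPM on average. TEK, TIE1, CDH5, ESAM, PECAM1 and VWF had means under 1 CPM, all lower in DMEM plus fatty acids. Hepatic and foregut endoderm markers summed to 17.1 to 125.8 CPM against 7.96 to 36.8, and pluripotency markers to 26.6 to 68.0 against 30.8 to 69.7. Neural markers summed to 19.4 to 23.9 CPM against 12.5 to 19.3. Red cell markers, of which 4 of 7 were at 0 in every library, summed to 21.2 to 29.97 CPM against 7.25 to 13.4. In these mixed RNA samples, fewer cells of a type and less RNA per cell cannot be told apart.

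SLC2A1, SLC2A3 and HK2 had fitted levels 2.81 to 3.76 times lower in DMEM plus fatty acids, with no overlap between the libraries of the media. Non-overlap with lower values in DMEM plus fatty acids was found for 12.8% of all tested genes, and with higher values for another 12.8%. None of the 3 passed the main test, in which libraries are compared by medium alone and an adjusted p under 0.05 is a call; 1.36% of all tested genes passed it (219 of 16107), and 1.07% (172) as lower. All 3 passed when the replicate number was a block in the fit, so that libraries with the same number were compared with each other, and 3.41% of all tested genes were then called lower and 1.36% higher. SLC2A4 and HK1, the muscle-type carrier and the widely expressed isozyme, had higher means with overlap between the media and passed neither fit. SLC2A4 made up 5.56% of transporter counts in RPMI plus B27, against 17.9% in DMEM plus fatty acids, and HK2 made up 25.8% and 8.58% of hexokinase counts.

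SLC2A1 lies on chr1:42925375-42959176, minus strand, in GRCh38 with GENCODE 29 gene models. Its TMM-scaled levels were 659, 302.9 and 315.7 CPM in RPMI plus B27 replicates 1, 2 and 3 and 167.5, 71.8 and 100.4 CPM in DMEM plus fatty acids replicates 1, 2 and 3. Replicate 1 was the highest library in each medium, and every DMEM plus fatty acids library lay below every RPMI plus B27 library. The means were 425.9 ± 202 and 113.3 ± 49.1 CPM (SD, n = 3 each). The log2 fold change was -1.91 ± 0.41 (SE), with an adjusted p of 0.0786 in edgeR's quasi-likelihood test with Benjamini-Hochberg adjustment over all tested genes. Within pairs of the same number the level in RPMI plus B27 was 3.93, 4.22 and 3.14 times that in DMEM plus fatty acids, a far narrower spread than that of the libraries themselves. With the replicate number as a block the log2 fold change was -1.90 ± 0.13 and SLC2A1 fell with an adjusted p of 0.00613. Without RPMI plus B27 replicate 1 the log2 fold change was -1.45.

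SLC2A3, on chr12:7919230-7936275, minus strand, had 499.5, 314.6 and 213.9 CPM in RPMI plus B27, against 124.1, 131.4 and 110.2 CPM in DMEM plus fatty acids. The RPMI plus B27 libraries spread over more than a 2-fold range, while those in DMEM plus fatty acids lay close together and below all of them. The means were 342.7 ± 144.8 and 121.9 ± 10.8 CPM (SD, n = 3 each), and the log2 fold change was -1.49 ± 0.29 (adjusted p = 0.0609 in edgeR). The ratios within pairs were 4.02, 2.39 and 1.94, and with the block SLC2A3 fell by 1.41 ± 0.21 on the log2 scale with an adjusted p of 0.0258. Leaving out RPMI plus B27 replicate 3 also gave a call, with an adjusted p of 0.0411, and leaving out replicate 1 of that medium gave a log2 fold change of -1.12. Part of this gene cannot be told from its neighbour SLC2A14 (GLUT14), 28082 bases away on the same strand: 24.2% of all 50-base stretches of SLC2A3 exons and 7.05% of 100-base stretches also occur in another gene, mostly SLC2A14. SLC2A3 had 52.7 to 87.9 times the counts of SLC2A14 in every library.

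SLC2A4, on chr17:7281667-7288257, plus strand, had 71.3, 51.9 and 27.9 CPM in RPMI plus B27, against 101.3, 60.6 and 43.0 CPM in DMEM plus fatty acids. The media overlapped, and replicate 1 was the highest and replicate 3 the lowest in both. The means were 50.4 ± 21.7 and 68.3 ± 29.9 CPM (SD, n = 3 each), and the log2 fold change was 0.44 ± 0.40 with an adjusted p of 0.612 in edgeR. The 95% interval, -0.50 to 1.37, holds both a modest decrease and a rise of over 2-fold. Each DMEM plus fatty acids library was above its numbered partner, by 1.42, 1.17 and 1.54 times, but the adjusted p with the block was 0.0881. SLC2A4 overlaps YBX2 on the opposite strand, and the strand setting of the counting is not given in the sources used here.

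**Figure D1:**
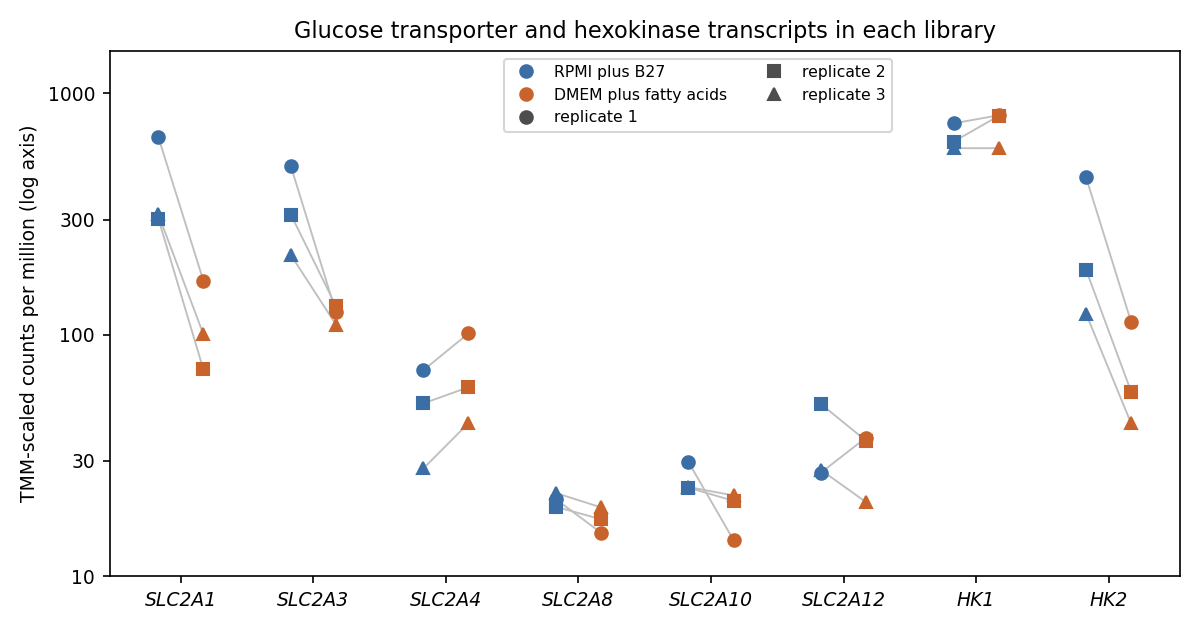
TMM-scaled CPM (log axis) of the 8 tested transcripts in each library; colours mark the medium, symbols the replicate number, and grey lines join libraries with the same number. The lines of SLC2A1, SLC2A3 and HK2 all slope down without overlap between media, those of SLC2A4 all slope up with overlapping media, and the 3 remaining transporters lie between 14.1 and 51.6 CPM.

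The remaining transporters were lower in level, and none passed either fit. SLC2A8 (GLUT8), an intracellular carrier on chr9:127397138-127408424, plus strand, had 20.8, 19.4 and 22.1 CPM against 15.1, 17.2 and 19.3. Its media just failed to overlap in TMM-scaled CPM, and the log2 fold change was -0.27 ± 0.15 at an adjusted p of 0.398 in edgeR. SLC2A10 (GLUT10), the gene mutated in arterial tortuosity syndrome, lies on chr20:46709487-46736347, plus strand. It had 29.7, 23.2 and 23.4 CPM against 14.1, 20.5 and 21.6, again without overlap, a log2 fold change of -0.44 ± 0.20 and an adjusted p of 0.315. With scaling by total counts the media overlapped for both SLC2A8 and SLC2A10. SLC2A12 (GLUT12), another carrier of muscle and heart, lies on chr6:133988697-134052636, minus strand. It had 26.8, 51.6 and 27.5 CPM against 37.5, 36.4 and 20.3, so the media overlapped, with a log2 fold change of -0.17 ± 0.33 and an adjusted p of 0.823. Its sign turned to 0.20 without RPMI plus B27 replicate 2 and to 0.07 without DMEM plus fatty acids replicate 3. SLC2A12 overlaps TBPL1 on the opposite strand. With both strands searched, 38.2% of its 50-base exon stretches also occur in another gene, mostly TBPL1. With the block the adjusted p was 0.277 for SLC2A8, 0.260 for SLC2A10 and 0.678 for SLC2A12.

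Per kilobase of exon, the order of transporter levels in RPMI plus B27 was SLC2A1 at 106.9 ± 50.7 CPM per kb and SLC2A3 at 87.5 ± 37.0, followed by SLC2A4 at 12.6 ± 5.45, SLC2A8 at 9.54 ± 0.62, SLC2A12 at 7.91 ± 3.16 and SLC2A10 at 5.25 ± 0.76 (SD, n = 3). Only the step from SLC2A3 to SLC2A4 separated neighbours without overlap. In DMEM plus fatty acids the order was SLC2A3 at 31.1 ± 2.76 CPM per kb, SLC2A1 at 28.4 ± 12.3, SLC2A4 at 17.1 ± 7.499, SLC2A8 at 7.91 ± 0.95, SLC2A12 at 7.02 ± 2.16 and SLC2A10 at 3.87 ± 0.83. There the range of SLC2A1 overlapped both that of SLC2A3 and that of SLC2A4, and neighbours did not overlap at the steps from SLC2A4 to SLC2A8 and from SLC2A12 to SLC2A10. The summed level of the 6 transporters was 1307, 763.7 and 630.6 CPM in RPMI plus B27, against 459.6, 338.0 and 314.8 CPM in DMEM plus fatty acids, without overlap.

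Shares within each library do not depend on how libraries are scaled. SLC2A4 made up 5.45%, 6.80% and 4.43% of transporter counts in RPMI plus B27, against 22.03%, 17.9% and 13.7% in DMEM plus fatty acids. Every DMEM plus fatty acids library was well above every RPMI plus B27 library. The means were 5.56% ± 1.19 and 17.9% ± 4.19 (SD, n = 3 each), and the exact two-sided permutation test gave p = 0.1, the smallest that 3 against 3 allows, or 0.225 adjusted over 9 shares. SLC2A1 held 50.4%, 39.7% and 50.1% against 36.4%, 21.3% and 31.9%, also without overlap and with the same exact p of 0.1. The share of SLC2A3 was 38.2%, 41.2% and 33.9% against 27.003%, 38.9% and 35.0%, which overlapped (exact permutation p = 0.5). SLC2A1 and SLC2A3 together held 88.6%, 80.9% and 84.0% in RPMI plus B27, against 63.4%, 60.1% and 66.9% in DMEM plus fatty acids, so they remained the bulk of transporter counts in both media. SLC2A8, SLC2A10 and SLC2A12 had mean shares of 2.55%, 3.01% and 4.39% in RPMI plus B27, against 4.84%, 5.33% and 8.45% in DMEM plus fatty acids. Each of these shares was higher in 3 of 3 pairs, with an exact permutation p of 0.2, or 0.257 adjusted, although the mean level of each gene in CPM was lower. In counts, SLC2A1 outnumbered SLC2A4 by 9.25, 5.83 and 11.3 to 1 in RPMI plus B27 and by 1.65, 1.19 and 2.34 to 1 in DMEM plus fatty acids. Weighted by exon length, the share of SLC2A4 was 5.47% ± 1.19 and 17.4% ± 4.24. With all SLC2A genes in the denominator its share differed by 10.4 percentage points between media, against 12.3 with the 6. The 95% Wilson interval of any transporter share in a library reached at most 0.950 percentage points to either side and covers counting error only.

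**Figure D2:**
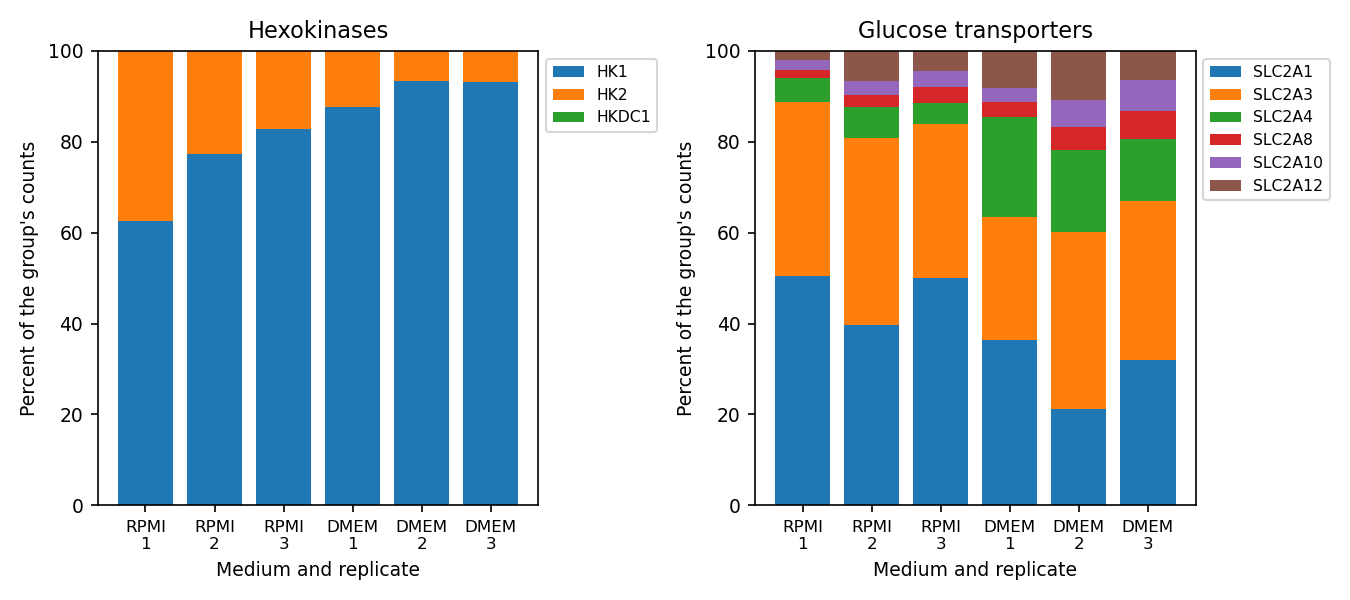
Percent of the summed counts of 3 hexokinases (left) and 6 glucose transporters (right) that each transcript took in each library, by medium and replicate. The HK2 segment is at most 12.2% in DMEM plus fatty acids and at least 17.1% in RPMI plus B27, and the SLC2A4 segment is at least 13.7% against at most 6.80%.

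Among hexokinases, HK2 on chr2:74833981-74893359, plus strand, had 448.8, 186.0 and 122.3 CPM in RPMI plus B27, against 113.0, 58.1 and 42.9 CPM in DMEM plus fatty acids. The levels followed the replicate number in both media, highest in replicate 1, and the media were separated by a narrow gap between 113.0 and 122.3 CPM. The means were 252.4 ± 173.1 and 71.3 ± 36.9 CPM (SD, n = 3 each). The log2 fold change was -1.82 ± 0.54, with an adjusted p of 0.154 in edgeR. Within pairs HK2 was 3.97, 3.20 and 2.85 times higher in RPMI plus B27, and with the block it fell by 1.73 ± 0.13 on the log2 scale with an adjusted p of 0.00643. Without RPMI plus B27 replicate 1 the log2 fold change of the test by medium was -1.11, and without DMEM plus fatty acids replicate 1 it was -2.32. Of its 50-base exon stretches 8.58% also occur in another gene, mostly the pseudogene HK2P1.

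HK1, on chr10:69269984-69401884, plus strand, had 750.5, 630.3 and 592.2 CPM in RPMI plus B27, against 810.3, 805.2 and 592.3 CPM in DMEM plus fatty acids. The media overlapped, and the log2 fold change of 0.16 ± 0.18 had a 95% interval of -0.25 to 0.57 and an adjusted p of 0.674 in edgeR (0.524 with the block). HK1 was the most abundant hexokinase per kilobase in both media, at 140.9 ± 17.7 and 157.6 ± 26.6 CPM per kb, followed by HK2 at 42.5 ± 29.1 and 12.01 ± 6.21 (SD, n = 3 each). HKDC1, a hexokinase-like gene 2425 bases from HK1 on the same strand (chr10:69220303-69267559), had 6, 4 and 3 counts against 6, 0 and 3. These lie at or near the 3 counts that a count of 0 allows, which is 0.0888 to 0.129 CPM in these libraries, so no fold change is given.

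As a share of the hexokinases, HK2 made up 37.4%, 22.8% and 17.1% of hexokinase counts in RPMI plus B27, against 12.2%, 6.73% and 6.76% in DMEM plus fatty acids. No library of one medium reached into the range of the other, and HK2 was lower in 3 of 3 pairs. The means were 25.8% ± 10.5 and 8.58% ± 3.17 (SD, n = 3 each), a difference of -17.2 percentage points with an exact two-sided permutation p of 0.1, or 0.225 adjusted over 9 shares. Without RPMI plus B27 replicate 1 the difference was -11.4 percentage points. The exact sign-flip test within pairs gave its smallest possible p, 0.25. HK1 counts were 1.67, 3.39 and 4.84 times those of HK2 in RPMI plus B27 and 7.17, 13.9 and 13.8 times in DMEM plus fatty acids. HKDC1 never exceeded 0.0279% of hexokinase counts. The summed level of the 3 hexokinases was 1200, 816.5 and 714.6 CPM against 923.6, 863.3 and 635.4, and the media overlapped.

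Promoter sequence is shown for HK2 and HK1 because their levels parted in the same libraries. Hypoxia-responsive elements hold the core ACGTG or GCGTG, and the E-box CACGTG, which holds ACGTG on both strands, is bound by factors of the MYC and carbohydrate-response families. The 250 bases before each RefSeq start (GRCh38.p14) were searched on both strands for both cores, and capitals mark the matches. HK2 has 2 such windows and HK1 has 7. The first line is the HK2 window chr2:74834920-74835169 on the plus strand, inside the gene model but outside its GENCODE 29 exons. The second is the part of the first HK1 window that lies before the gene's first exon, chr10:69269750-69269983 on the plus strand. Of the 2 HK2 windows the one with more matches is shown, whereas the HK1 window shown is not the HK1 window with a match. The lines are therefore no like-for-like comparison.
HK2: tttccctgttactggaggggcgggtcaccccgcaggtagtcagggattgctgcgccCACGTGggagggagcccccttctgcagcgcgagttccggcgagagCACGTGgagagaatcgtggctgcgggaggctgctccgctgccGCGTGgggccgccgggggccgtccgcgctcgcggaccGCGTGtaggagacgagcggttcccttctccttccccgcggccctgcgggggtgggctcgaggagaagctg
HK1: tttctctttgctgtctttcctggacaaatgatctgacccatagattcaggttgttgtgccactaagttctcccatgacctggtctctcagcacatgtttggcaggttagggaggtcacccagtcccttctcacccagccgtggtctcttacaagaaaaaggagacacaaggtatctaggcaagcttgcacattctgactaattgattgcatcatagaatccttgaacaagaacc
The HK2 window has 6 matches, counted on both strands, of which 4 come from 2 copies of CACGTG at 194 and 149 bases before the start. Of 35116 RefSeq windows of this length 43.2% hold at least 1 match, 7.76% hold at least 3 and 0.646% hold at least 6. Windows of a single chromosome, which holds no member, were left out of this background. The limit of 6 was set at the highest count among the 14 windows of the members, so its share is not a test of HK2. CACGTG itself is in 6.34% of them, ACGTG in 18.5% and GCGTG in 32.2%. The other HK2 window, chr2:74833877-74834126, has 3 matches. The HK1 sequence shown has none, and 1 of the 7 HK1 windows has a single match. The windows of SLC2A8, SLC2A12 and HKDC1 have no match, nor has that of SLC2A1, which lies wholly inside the gene's own exons, and that of SLC2A10 has 1. A match is a string of letters, and binding was not measured. A link between matches and levels was not tested.

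Over the whole group, 0 of the 8 tested members passed edgeR's main test in either direction. At an unadjusted p under 0.05, 3 members had lower values in DMEM plus fatty acids and none higher, where 9.98% of all tested genes were lower and 7.7% higher by that measure. DESeq2 called the same 3, SLC2A1, SLC2A3 and HK2, as lower, along with 5.14% of all tested genes, and it called 2.42% of them higher. Of all main calls 78.5% were lower in DMEM plus fatty acids, and 63.4% with scaling by total counts. With the block 3 members of 8 fell and none rose, where 3.41% of all tested genes were called lower and 1.36% higher. In TMM-scaled CPM, libraries of the media did not overlap for 5 of 8 members, SLC2A1, SLC2A3, SLC2A8, SLC2A10 and HK2. All 5 were lower in DMEM plus fatty acids, and no member was higher without overlap. Of all tested genes 12.8% did not overlap with lower values and 12.8% with higher values. SLC2A8 and SLC2A10 passed neither fit, and with scaling by total counts the media overlapped for both. The median log2 fold change of the 8 members was -0.36, and that of all tested genes was 0.01. RPMI plus B27 replicate 1 had both the highest sum of fibroblast and stromal markers, 15322 CPM, and the highest SLC2A1, SLC2A3 and HK2. In DMEM plus fatty acids, replicate 1 had the lowest sum of those markers, 1190 CPM, and the highest SLC2A1 and HK2. The part of stromal cells in the differences between media was not tested.

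**Figure D3:**
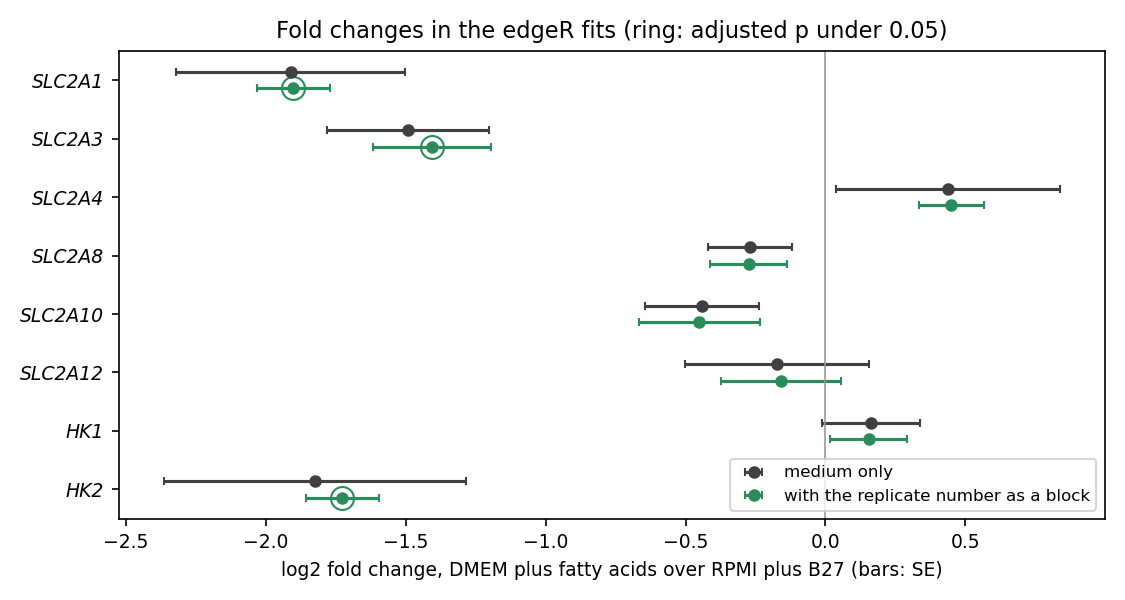
Log2 fold changes with standard errors of the 8 tested members in the edgeR fit by medium alone (dark) and in the block fit (green); rings mark an adjusted p under 0.05. The estimates hardly differ between fits, but the error of SLC2A1 shrinks from 0.41 to 0.13 and that of HK2 from 0.54 to 0.13, and only these and SLC2A3 have rings, all in the block fit.

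Of 13 other sugar transporter and hexokinase genes examined, 9 were tested and 1 passed. SLC2A14, the near copy of SLC2A3, fell from 4.74 ± 0.85 to 1.54 ± 0.20 CPM (SD, n = 3 each), or -1.62 ± 0.26 in log2 (adjusted p = 0.0423 in edgeR). It has 28.2% of its 50-base exon stretches in common with other genes, mostly SLC2A3, so its counts are uncertain, and the call was lost when any one library was left out. With the block SLC2A9, a urate carrier, also fell, from 1.48 to 0.443 CPM (adjusted p 0.0420, and 0.0606 without the block). SLC2A11 (GLUT11), a muscle-expressed carrier of glucose and fructose, rose with the block from 19.4 ± 0.33 to 30.5 ± 3.75 CPM (adjusted p 0.0492, and 0.0808 without the block). Among those that passed neither fit, SLC2A13, a proton and myo-inositol carrier, had 16.6 and 11.6 CPM, SLC2A6 had 5.27 and 7.08, SLC50A1 had 18.3 and 24.2, and ADPGK, which phosphorylates glucose with ADP, had 24.5 and 28.4. The sodium-coupled carrier SLC5A2 was near the filter at 0.748 and 0.448 CPM. SLC5A1, the sodium-coupled intestinal carrier, had 25.9, 47.6 and 39.5 CPM against 46.4, 39.8 and 9.18, a range wider than any difference between media. SLC2A2, SLC2A5 and HK3 were too low to test, and SLC2A7 had no count in any library.

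TXNIP and ARRDC4, which restrain glucose uptake, fell, and their fitted changes were larger than that of any member. TXNIP, an arrestin-like protein that promotes internalization of GLUT1 and GLUT4 and is induced by glucose, had 273.3, 224.7 and 177.6 CPM in RPMI plus B27, against 6.54, 11.96 and 12.4 CPM in DMEM plus fatty acids. The highest DMEM plus fatty acids library was far below the lowest RPMI plus B27 library. Its log2 fold change was -4.45 ± 0.30, with an adjusted p of 0.00478 in edgeR, and it stayed past the threshold in all 12 alternatives. Its relative ARRDC4 fell from 37.0 ± 6.17 to 7.26 ± 1.02 CPM (SD, n = 3 each), or -2.35 ± 0.19 in log2 (adjusted p = 0.0141 in edgeR). Its adjusted p passed 0.05 when RPMI plus B27 replicate 2 (0.0563) or DMEM plus fatty acids replicate 3 (0.0631) was left out. By edgeR, with or without the block, no other of the 13 tested regulators of transporters and hexokinases passed. DESeq2 called MLXIP lower and MEF2C higher as well, with log2 fold changes of -0.49 and 0.38. HIF1A, the hypoxia factor, had 390.3 ± 133.2 and 427.2 ± 41.3 CPM with an adjusted p of 0.830.

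Around the members, each of 3 lists of glucose routing held a single gene called by edgeR by medium alone. Among 10 tested genes of upper glycolysis, PFKFB3, which makes the activator of phosphofructokinase, fell from 60.3 ± 15.6 to 22.5 ± 5.43 CPM (SD, n = 3 each), with a log2 fold change of -1.43 ± 0.25 and an adjusted p of 0.0471 in edgeR. PFKFB2, the heart isoform of that enzyme, rose with the block, from 31.1 to 58.6 CPM (adjusted p 0.0236, and 0.0732 without it). In this list DESeq2 called PFKFB3, PFKP, PFKL and PFKFB4 lower and PFKFB2 higher. Of 12 glycogen genes GBE1, the branching enzyme, fell from 174.6 ± 26.1 to 99.2 ± 8.31 CPM, with an adjusted p of 0.0477, and DESeq2 also called PGM2 and PYGL lower. Of 15 tested genes of GLUT4 trafficking SORT1, which sorts GLUT4 into its storage vesicles, fell from 454.7 ± 6.55 to 259.8 ± 16.7 CPM, with an adjusted p of 0.0346, and DESeq2 called no other. PFKFB3, GBE1 and SORT1 each lost the call when any one library was left out.

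The other 3 lists had no call by edgeR, with or without the block. Of 13 genes of the pentose phosphate and hexosamine branches 1 had a higher and 1 a lower value at an unadjusted p under 0.05, a share close to that of all tested genes, and DESeq2 called UAP1 lower. The smallest p there belonged to UAP1 (log2 fold change -0.69, adjusted p 0.153 in edgeR) and PGD (0.34, adjusted p 0.205). Both tested genes of the glucose-6-phosphatase system, G6PC3 (0.22) and SLC37A4 (0.03), were above an unadjusted p of 0.05 and not called by DESeq2. Of 6 channels and carriers of the mitochondrial membranes that include the docking sites of hexokinase, 2 had higher values at an unadjusted p under 0.05, SLC25A6 and SLC25A5 (0.46 each), where 7.7% of all tested genes did, and DESeq2 called none. The median log2 fold change of tested genes was -0.32 in upper glycolysis, -0.13 in glycogen, 0.06 in GLUT4 trafficking, -0.03 in the regulators, 0.07 in the branches, 0.13 in the phosphatase system and 0.18 in docking.

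**Figure D4:**
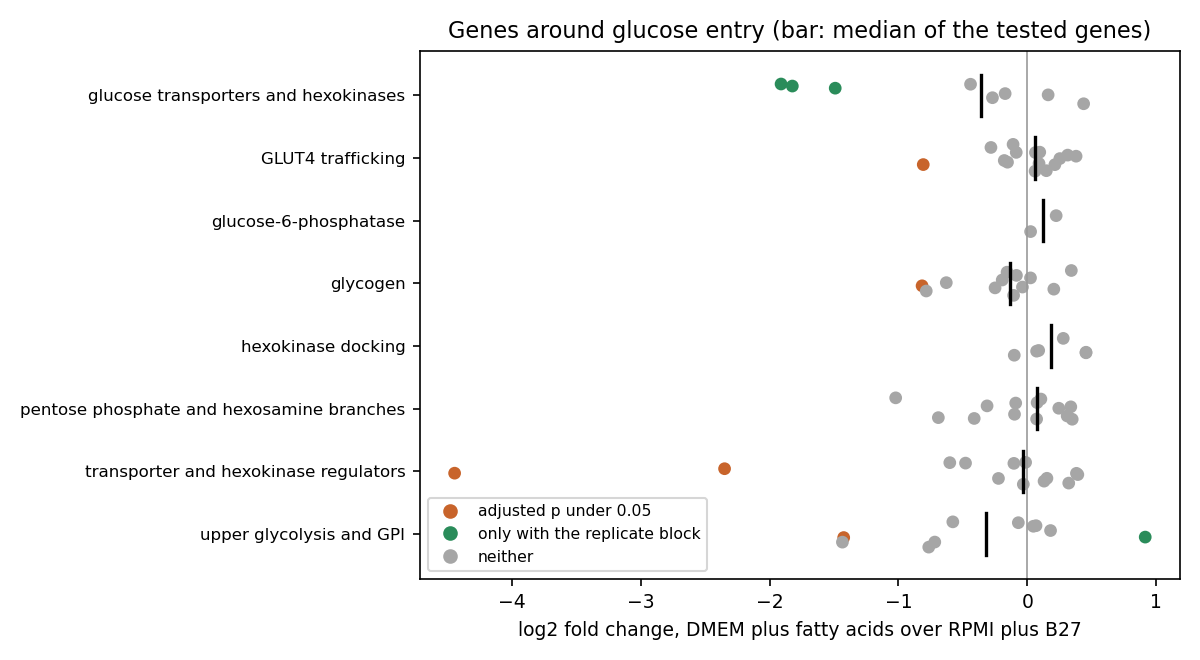
Log2 fold changes of the 8 tested members (top) and of tested genes in 7 lists around glucose entry, with 1 point a gene, coloured by whether it passed the test, and a bar at the median. The member points spread from -1.91 to 0.44, and TXNIP at -4.45 stands apart among the regulators.

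Profiles over the 6 libraries, as log2 CPM centred on each gene's mean, were compared with those of 10018 other tested genes that averaged 10 CPM or more, by the root mean square difference. Nearest to SLC2A1 were BNIP3 (0.23), a mitophagy receptor, and LDHA (0.24), a subunit of lactate dehydrogenase, where the median over all genes was 1.11. Nearest to HK2 were ALDOC (0.19), an aldolase, and NGFR (0.24), with a median of 1.13. The nearest member to each of SLC2A1 and HK2 was the other, at 0.38. Nearest to SLC2A3 were GUCY1B1 (0.07), a subunit of soluble guanylate cyclase, and RRAS (0.11), and nearest to SLC2A4 were INPP4B (0.14) and PPARGC1A (0.16), a coactivator of mitochondrial genes. For the flatter members the nearest were MEX3A and GLTP for SLC2A8, SIDT2 and NTAN1 for SLC2A10, MYL7 and KDM7A-DT for SLC2A12, and RALA and UBE2O for HK1. A difference between media is the main part of the profiles of SLC2A1, SLC2A3 and HK2. It is not the main part for SLC2A4, SLC2A12 and HK1, whose profiles differ more among libraries of one medium. With 6 points a profile many genes lie close, and these are descriptions.

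**Figure D5:**
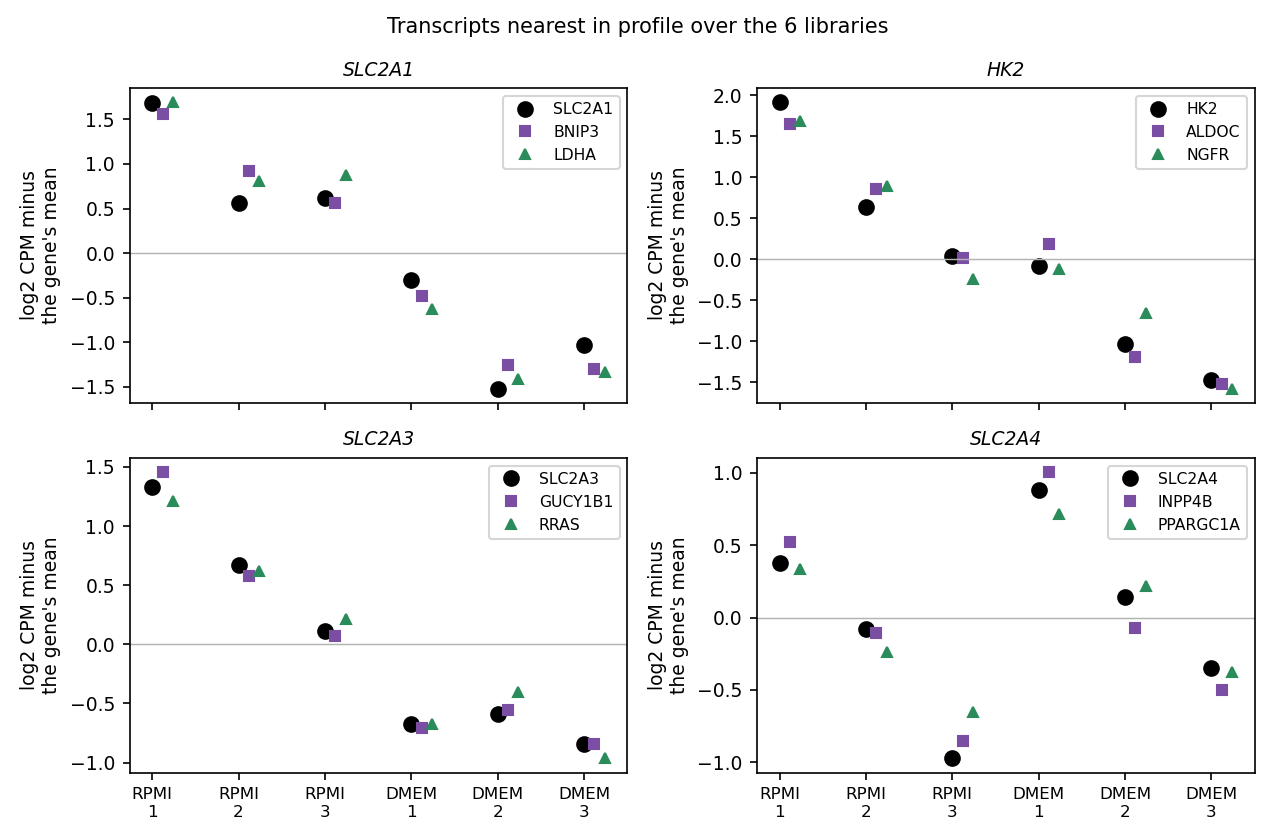
Log2 CPM minus the gene's own mean in each of 6 libraries for SLC2A1, HK2, SLC2A3 and SLC2A4 (black) and the 2 genes nearest to each in profile. SLC2A1 and HK2 are highest in replicate 1 of each medium, and SLC2A4 ranges from 27.9 to 71.3 CPM among the RPMI plus B27 libraries.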

How the data were processed

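RNA of 6 cultures was sequenced from stranded mRNA libraries, per the labels' protocols. The authors deposited unnormalized counts of reads for each gene symbol, library by library. STAR, HTSeq and the hg38 build are named in the submitters' processing notes; their versions, the strand setting and the annotation are not given in the sources used here. Gene rows held 84.4% to 87.2% of all rows; summary rows, kept out of library sizes and tests, held reads in no gene (5.44% to 7.57%), in more than one gene (3.90% to 4.15%) and at more than one place (3.05% to 4.10%).

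The test was run in R 4.3.3 with edgeR 4.0.16 (filterByExpr with minimum count 10 and minimum total 15, TMM scaling, quasi-likelihood test by medium, Benjamini-Hochberg over 16107 genes, threshold 0.05). The biological coefficient of variation was 25.6%, and 18.2% with the replicate block. The fit was tested on simulated data. Shares of counts were compared by exact permutation over libraries. Intervals and the limit of 3 counts for a count of 0 cover counting error only. Alternatives were the replicate block, DESeq2 1.42.0, other scalings and filters, and leaving out each library. GENCODE 29 gene models gave positions and exon lengths (the annotation used for counting may differ), and RefSeq gave promoter windows, found for 7 of 9 members.

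Replicate numbers are shared between media. Deviations from the medium's mean correlated across genes at 0.31, 0.43 and 0.37 for libraries with the same number and at -0.24 to -0.14 for others, so the numbers were treated as pairing, although the labels do not say what is shared. Centring on each medium's mean makes the others negative when the first are positive, so they are no separate evidence. The pairing was read from the same counts as the block fit, which leaves 2 residual degrees of freedom, against 4 without the block. Nothing says whether replicates were separate differentiations. The members, gene lists and tests were chosen with earlier results of these data known. The named genes are all members, the other family genes (1 is not reported here), called genes of each list or else its 2 smallest p, and the 2 nearest profiles; HIF1A, PFKFB2 and genes called by DESeq2 or the block alone were named after their values were seen.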

Additional observations from a re-analysis of the deposited data

How the results depend on the processing

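The number of genes called, 219 by medium alone, was 769 with the replicate block, 1218 with DESeq2, 539 with no filter on low counts, 119 with at least 10 counts required in every library (14501 genes tested), and 3 to 131 when one library was left out. Of the 8 tested members, 0 were called by medium alone, 3 with the replicate block, 3 with DESeq2, 2 with no filter, and 0 to 1 when one library was left out (SLC2A3 without RPMI plus B27 replicate 3); the cause was not tested. The adjusted p over the 12 alternatives ran from 9.77e-05 to 0.213 for SLC2A1, from 8.51e-05 to 0.176 for SLC2A3 and from 0.00643 to 0.364 for HK2 (edgeR or DESeq2). Scaling by total counts moved the median over all genes (log2) from 0.01 to 0.12. Of the tested members SLC2A12 alone changed sign in any alternative, to 0.20 without RPMI plus B27 replicate 2 and to 0.07 without DMEM plus fatty acids replicate 3 (range without one library -0.34 to 0.20). SLC5A1 turned to 0.20 without DMEM plus fatty acids replicate 3 (range -0.62 to 0.20). The difference in the HKDC1 share, which rests on 0 to 6 counts a library, ran from -0.0114 to 0.00253 percentage points. The block changed the call of no member other than SLC2A1, SLC2A3 and HK2. With 3 libraries a group, exact tests of shares cannot reach 0.05.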
